A study of Mus musculus with 71 samples.

Results

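The 10 Toll-like receptor genes Tlr1 to Tlr9 and Tlr13 were followed through 6 models of brain injury and disease in mouse microglia, the resident macrophages of the brain. They were chosen by name from the 55413 gene symbols in each table. All 10 are listed in every table. Each was tested in the glioma and P6 stroke tables, and 9 were tested in the other tables, where Tlr8 was below 1 TPM (a share of all transcripts, corrected for gene length) in too many libraries.

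Toll-like receptors recognise molecules of microbes and of damaged cells. Tlr2 pairs with Tlr1 or Tlr6 at the cell surface to bind lipoproteins, Tlr4 reads lipopolysaccharide and Tlr5 reads flagellin. In endosomes, Tlr3 reads double-stranded RNA, Tlr7 single-stranded RNA, Tlr9 DNA with unmethylated CpG and Tlr13 bacterial ribosomal RNA. Most signal through the adaptor MyD88, Tlr3 through TRIF and Tlr4 through both, towards NF-kB, interferon regulatory factors and the release of cytokines. Microglia carry most of these receptors in the healthy brain.

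The mice carried GFP in the Spp1 gene, which encodes osteopontin and is switched on by reactive microglia. They were sorted into GFP-negative and GFP-positive cells, 2000 per bulk library. Mice heterozygous for the reporter were given cuprizone, a diet that strips myelin, for 5 weeks (4 control, 3 GFP-negative and 3 GFP-positive libraries), received CT2a glioma cells 21 days before (4, 4 and 4), or had experimental autoimmune encephalomyelitis (EAE) and had recovered to a clinical score of 1 to 2 (3, 3 and 3). These mice were 8 to 10 weeks old. Mice heterozygous for both the 5xFAD amyloid transgenes and the reporter were 7 months old (4, 4 and 4). The controls of these 4 models were wild type mice without reporter, so a GFP group differs from its control in disease, reporter genotype and gate at once. By their Xist and Y-linked transcripts the cuprizone controls were 2 female and 2 male libraries and both cuprizone GFP groups 3 male libraries each, so sex differs there too. The 5xFAD libraries were female, those of P6 stroke 2 female and 2 male in each group, and the rest male. With a term for sex in the cuprizone fit, the receptor calls stayed as they were except that of Tlr13, given below. For P6 stroke the brain was injured at postnatal day 6 and collected at day 9, and for P28 stroke injured at day 28 and collected at day 35. Their reference was cortex of the other hemisphere, also from mice heterozygous for the reporter (4, 4 and 4 each). The column headers place these reference cells in the GFP-negative gate.

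All 12 microglia markers examined, Tmem119 and P2ry12 among them, were above a mean of 1 TPM in each of the 18 groups. This low bar shows that their transcripts were present, and not what part of the cells were microglia. Read depth is unknown, since only TPM was given. Similarity between libraries of a group was high (correlation of each with the rest of its group 0.921 to 0.977), but EAE GFP-negative library 1 stood apart in these receptors, with Tlr13 at 18.3 TPM against 126 and 108 in the other two. Results of the EAE table are therefore also given without it where it changes a call or a value by much. The labels do not say whether libraries of a group came from separate animals, and the p-values measure the spread between these libraries, which may be technical. Markers of monocyte-derived cells summed to 2032 to 4729 TPM in glioma GFP-negative and 855 to 2229 in glioma GFP-positive libraries, against 45.3 to 103 in their controls. In glioma all 10 of these markers were above 1 TPM, and the 12 microglia markers summed to 11994 to 27402 and 11444 to 18739 TPM against 54059 to 58383. In EAE the monocyte-derived markers reached 72.4 to 144 and 119 to 136 TPM against 11.8 to 13.2, and in P28 GFP-positive libraries 60.5 to 188 against 9.15 to 19.9, with Chil3 listed at 0 there. The part these cells have in the results was not tested. In bulk libraries, fewer cells of a type and less RNA per cell cannot be told apart.

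Tlr1 and Tlr6 lie next to each other on the minus strand of chromosome 5 (GRCm38, 64924679 to 64933563 and 64952031 to 64960097), and Tlr7 and Tlr8 on the minus strand of chromosome X (167304929 to 167330558 and 167242696 to 167264329). Tlr13 is also X-linked, and the others lie alone on chromosomes 1 (Tlr5), 3 (Tlr2), 4 (Tlr4), 8 (Tlr3) and 9 (Tlr9). Transcripts of Tlr1 and Tlr6 share an identical run of 229 bases, and 15.3% of the 50-base words of the Tlr1 transcript occur in Tlr6. No other pair shares a 50-base word. How reads in that run were divided between Tlr1 and Tlr6 is uncertain, and so are opposite movements of this pair.

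Promoters are shown for the 4 receptors whose difference between GFP-positive and GFP-negative cells was called in the values both as given and after rescaling (below). The sequences are from RefSeq on GRCm38.p6 and run from 250 bases before the start to 50 after it, 5′ to 3′ on the gene's strand. Tlr2 lies at chr3:83841559-83841858 (minus strand), Tlr3 at chr8:45410331-45410630 (minus), Tlr5 at chr1:182954538-182954837 (plus) and the first of 2 Tlr6 entries at chr5:64959117-64959416 (minus). Capitals mark matches to 4 motifs on either strand.
Tlr2: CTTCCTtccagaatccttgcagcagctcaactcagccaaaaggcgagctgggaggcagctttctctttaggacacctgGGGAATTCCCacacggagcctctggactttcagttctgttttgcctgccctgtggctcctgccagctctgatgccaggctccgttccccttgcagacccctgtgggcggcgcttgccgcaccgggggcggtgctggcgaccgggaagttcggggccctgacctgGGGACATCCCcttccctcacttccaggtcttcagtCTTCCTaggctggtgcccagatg
Tlr3: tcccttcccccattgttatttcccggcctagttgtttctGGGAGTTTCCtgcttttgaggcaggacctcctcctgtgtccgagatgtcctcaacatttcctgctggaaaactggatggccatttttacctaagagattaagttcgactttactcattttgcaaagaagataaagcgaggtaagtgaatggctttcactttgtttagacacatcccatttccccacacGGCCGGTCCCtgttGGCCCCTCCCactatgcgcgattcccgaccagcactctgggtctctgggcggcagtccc
Tlr5: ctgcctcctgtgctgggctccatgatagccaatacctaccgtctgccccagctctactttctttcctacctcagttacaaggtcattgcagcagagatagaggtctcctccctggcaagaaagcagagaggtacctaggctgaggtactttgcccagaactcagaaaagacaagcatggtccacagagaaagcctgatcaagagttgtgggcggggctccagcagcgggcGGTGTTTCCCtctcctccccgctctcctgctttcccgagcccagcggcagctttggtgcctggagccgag
Tlr6: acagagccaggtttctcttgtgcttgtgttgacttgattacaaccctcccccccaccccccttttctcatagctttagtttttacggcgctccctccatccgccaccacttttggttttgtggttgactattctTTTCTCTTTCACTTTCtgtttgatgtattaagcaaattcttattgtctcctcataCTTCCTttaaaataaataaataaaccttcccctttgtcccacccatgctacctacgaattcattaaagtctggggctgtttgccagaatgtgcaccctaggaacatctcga

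The motifs searched were GGGA and CC with any 4 bases between them for NF-kB, AGGAAG for the myeloid factor PU.1, TGANTCA for AP-1 and a pair of GAAA with any 2 bases between them for interferon response elements. Tlr2 held 2 NF-kB matches, at -172 to -163 and at -8 to 2 from the start, and 2 PU.1 matches. Among the receptors that fell, Tlr3 held 3 NF-kB matches, Tlr5 held 1 and neither held a PU.1 match. The first Tlr6 entry held 1 PU.1 match and 2 overlapping interferon response matches at -116 to -101, and its second entry held 1 PU.1 match. Over the 10 entries of the 8 receptors that have one (Tlr4 and Tlr7 have none in the table), 3 held the NF-kB motif, 6 the PU.1 motif, 1 (Tlr9) the AP-1 motif and 1 the interferon motif. Of 32851 mouse promoters of this length, 20.7% held the NF-kB motif, 35.4% the PU.1 motif, 7.81% the AP-1 motif and 3.44% the interferon motif. NF-kB matches were thus present in receptors that moved in opposite directions, and a match describes letters in the window only.

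A change is the difference of group means of log2(TPM + 1), with its standard error (SE), from limma over all genes of a table. It is called, and said to rise or fall, where the p adjusted over all tested genes is under 0.05. TPM values are shares of a fixed total, and the median gene shifted by -0.57 to 0.05 on this scale in the 18 contrasts. Each change is therefore also given after median-of-ratios rescaling, which sets a typical gene to no change.

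Between GFP-positive and GFP-negative cells of the same model, 11 of 56 tests of the receptors were called, 2 upward and 9 downward. In cuprizone 3 of 9 were called, where 10.2% of all tested genes were called (2.7% up and 7.49% down). In 5xFAD 2 of 9 were called (8.16% of all genes, 1.02% up and 7.14% down), and after P28 stroke 6 of 9 (29%, with 5.86% up and 23.2% down). With limma none of 10 was called in glioma (6.67%, with 0.927% up and 5.75% down), none of 9 in EAE (0.688%, with 0.252% up and 0.437% down) and none of 10 after P6 stroke (3.36%, with 1.03% up and 2.33% down), where 1, 2 and 3 receptors had an unadjusted p under 0.05. After rescaling 8 were called, 4 up and 4 down. The share of all genes called after rescaling was 6.12% in cuprizone, 5.26% in glioma, 0.58% in EAE, 5.21% in 5xFAD, 2.84% after P6 stroke and 15.7% after P28 stroke. Over all genes rescaling also turned the balance, the upward share of calls running from 12.5 to 36.6% as given and from 43.7 to 68.8% rescaled. The calls made on both scales were 6, namely Tlr2 up in cuprizone and P28 stroke, Tlr5 down in the same models, Tlr3 down in cuprizone and Tlr6 down in P28 stroke.

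GFP-negative cells were compared with the reference. In the 4 models with wild type controls this comparison also carries reporter genotype, and in cuprizone sex. GFP-negative names the sorting gate, and Spp1 transcript was present in these groups, at means of 4.40 (cuprizone) to 99.5 TPM (EAE). Of 56 tests 13 were called, 4 up and 9 down. Of these, 9 of 10 receptors were in glioma (52.8% of all genes called, 16% up and 36.8% down), 3 of 9 in EAE (30.3%, with 5.88% up and 24.5% down) and 1 of 9 in 5xFAD (12.7%, with 3.57% up and 9.12% down). None was called by limma in cuprizone (0.163%, with 0.148% up and 0.0155% down), P6 stroke (0.274%, with 0.0914% up and 0.183% down) or P28 stroke (0.238%, with 0.217% up and 0.021% down), where 3, 0 and 1 receptors had an unadjusted p under 0.05. GFP-positive cells compared with the reference gave 32 calls, 9 up and 23 down. They were 6 of 9 receptors in cuprizone (18.2% of all genes, 4.5% up and 13.7% down), 9 of 10 in glioma (63.7%, with 17.7% up and 45.9% down) and 2 of 9 in EAE (29.8%, with 6.91% up and 22.9% down). They were 5 of 9 in 5xFAD (40%, with 6.11% up and 33.9% down), 1 of 10 after P6 stroke (3.11%, with 0.556% up and 2.56% down) and 9 of 9 after P28 stroke (36%, with 7.56% up and 28.4% down). After rescaling, in the order cuprizone, glioma, EAE, 5xFAD, P6 and P28 stroke, 0.164%, 37.9%, 13.8%, 7.3%, 0.138% and 0.147% of all genes were called in GFP-negative cells against the reference. In GFP-positive cells against the reference these shares were 10.7%, 51.8%, 17.1%, 20.8%, 1.11% and 21.5%, and upward calls went from 15.3 to 27.8% of all calls as given to 54.9 to 75.2% rescaled. In EAE neither share of receptors was clearly above that of all genes, nor was the share in 5xFAD GFP-negative cells (1 of 9 against 12.7%). Whether any share of receptors differs from that of all genes was not tested. Over the 3 comparisons 56 calls were made, 37 of them on both scales, and none was called in opposite directions. The comparisons of a model share libraries, so their counts do not add independent support to each other.

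**Figure D1:**
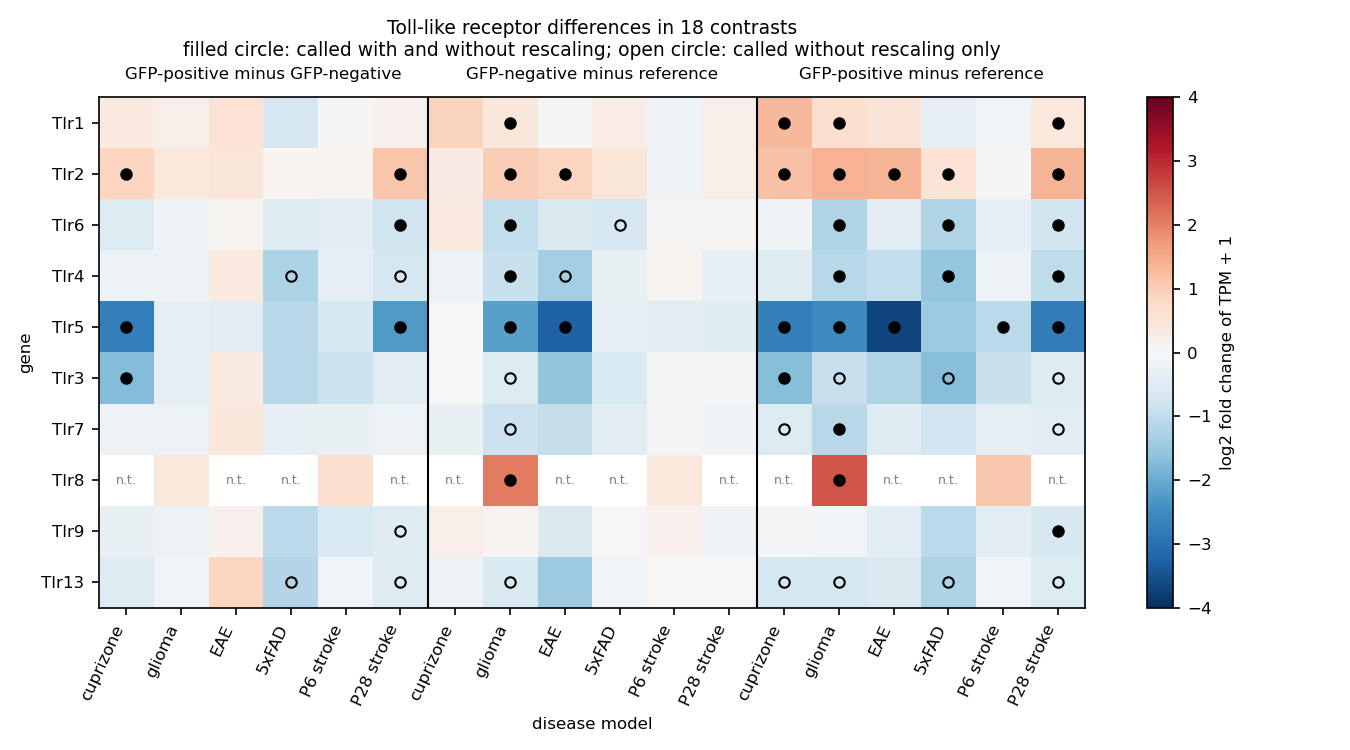
Log2 fold change of TPM + 1 (colour, red higher and blue lower in the first-named group) of 10 receptors (rows) in 3 contrasts of 6 models (columns). Filled circles mark the 37 calls made with and without rescaling, open circles calls made without rescaling only, and n.t. receptors not tested. For GFP-positive cells against the reference, Tlr2 is red and Tlr5 blue with filled circles in 5 of 6 models each.

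Tlr2, the shared subunit of the lipoprotein receptors, rose in more models than any other receptor. It was higher in GFP-positive cells than in the reference in 5 of 6 models, on both scales, and did not pass the test after P6 stroke. In cuprizone, Tlr2 was at 64.7, 74.7, 86.5 and 90.6 TPM in the controls, 82.0, 104 and 112 in GFP-negative and 169.8, 193 and 175 in GFP-positive libraries. The GFP-positive libraries all lay above the rest, while control and GFP-negative libraries overlapped. The change was 0.85 (SE 0.16, adjusted p = 0.00462) against GFP-negative cells and 1.18 (SE 0.15, adjusted p = 0.000129) against controls, or 1.15 and 1.51 after rescaling. After P28 stroke, Tlr2 was at 102, 92.0, 98.0 and 99.4 TPM on the other side, 129, 111, 112 and 115 in GFP-negative and 246, 262, 259.7 and 238 in GFP-positive libraries. Again only the GFP-positive group stood clear by a wide margin, with 1.10 (SE 0.08, adjusted p = 4.83e-06) against GFP-negative cells and 1.35 (SE 0.08, adjusted p = 1.49e-07) against the other side, or 1.44 and 1.71 rescaled.

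In glioma and EAE, Tlr2 was also raised in GFP-negative cells. Spp1 itself was above the controls in these cells, with means of 57.1 ± 26.3 against 7.06 ± 7.93 TPM in glioma (SD, n = 4 each) and 99.5 ± 34.7 against 36.4 ± 20.6 in EAE (n = 3 each). In glioma Tlr2 was at 100.4, 121, 115 and 119 TPM in controls, 240.0, 195, 229 and 239.6 in GFP-negative and 378, 283, 296 and 259.7 in GFP-positive libraries, so the 3 groups formed steps without overlap. The first step was called, at 0.98 (SE 0.12, adjusted p = 3.9e-05), and so was the whole, at 1.40 (SE 0.12, adjusted p = 9.72e-07). The second step, 0.42 (95% interval 0.15 to 0.68, adjusted p = 0.0606), was called after rescaling, at 0.61 (adjusted p = 0.0172), and with a 5 TPM filter (adjusted p = 0.0495). In EAE the levels were 163, 149 and 165 TPM in controls, 257, 290.3 and 329 in GFP-negative and 393, 424 and 395 in GFP-positive libraries, again 3 separate levels. GFP-negative cells were above controls by 0.87 (SE 0.12, adjusted p = 0.000522) and GFP-positive cells by 1.34 (SE 0.12, adjusted p = 1.83e-05), and all 4 of these calls against controls held after rescaling. The step between the GFP groups in EAE, 0.47 (95% interval 0.22 to 0.73, adjusted p = 0.126), was not called on either scale. Without GFP-negative library 1 the EAE changes of Tlr2 were 0.96 (adjusted p = 9.4e-05) in GFP-negative and 1.34 (adjusted p = 2.52e-06) in GFP-positive cells against controls, and 0.38 (adjusted p = 0.0889) between them.

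The rise of Tlr2 was smaller in 5xFAD and was not seen after P6 stroke. In 5xFAD, Tlr2 was at 86.6, 100.5, 84.7 and 99.2 TPM in controls, 158, 120.1, 127 and 116 in GFP-negative and 192, 150.0, 106 and 114 in GFP-positive libraries. Every library from 5xFAD mice was above every control, and the GFP groups overlapped, library 1 being the highest in both. GFP-positive cells were above controls by 0.56 (SE 0.18, adjusted p = 0.02), or 1.25 (adjusted p = 9.95e-05) rescaled. Without GFP-positive library 1 or 2 the adjusted p was 0.0727 or 0.056. GFP-negative cells differed from controls by 0.48 (95% interval 0.11 to 0.86, adjusted p = 0.0864), called after rescaling at 0.82 (adjusted p = 0.00975) and, on the scale as given, without GFP-positive library 1 (adjusted p = 0.0487). After P6 stroke the levels were 134, 143, 126 and 111 TPM on the other side, 113, 124, 116 and 115 in GFP-negative and 130.1, 138, 119 and 114 in GFP-positive libraries, and all 3 groups overlapped. GFP-positive cells differed from the other side by -0.03 (95% interval -0.23 to 0.17, adjusted p = 0.861) and from GFP-negative cells by 0.10 (95% interval -0.10 to 0.30, adjusted p = 0.568). These intervals lie below the changes measured after P28 stroke, and the difference between models was tested as described further down.

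Tlr5, the flagellin receptor, fell against the reference in 5 models, all but 5xFAD, on both scales. In cuprizone, Tlr5 was at 4.06, 4.85, 13.2 and 10.9 TPM in controls, 4.26, 9.12 and 9.99 in GFP-negative and 0, 0.360 and 0.450 in GFP-positive libraries. It was close to 0 in each GFP-positive library, with a change of -2.74 (SE 0.48, adjusted p = 0.00281) against GFP-negative cells and -2.74 (SE 0.45, adjusted p = 0.000919) against controls. The rescaled changes were -2.61 and -2.58. After P28 stroke, where it was most abundant, Tlr5 was at 45.5, 34.8, 37.8 and 33.3 TPM on the other side, 25.5, 27.3, 27.2 and 25.3 in GFP-negative and 2.71, 3.10, 4.00 and 12.3 in GFP-positive libraries. GFP-positive library 4, at 12.3 TPM, was above the other three and still below every other library. The change was -2.27 (SE 0.31, adjusted p = 0.000186) against GFP-negative cells and -2.77 (SE 0.31, adjusted p = 1.96e-05) against the other side, or -1.99 and -2.46 rescaled.

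In glioma and EAE the loss of Tlr5 was already present in GFP-negative cells. Tlr5 in glioma was at 16.6, 18.7, 19.3 and 23.1 TPM in controls, 2.30, 4.12, 3.46 and 4.27 in GFP-negative and 0.940, 3.13, 3.63 and 3.02 in GFP-positive libraries. Both GFP groups lay below every control and overlapped with each other, at -2.18 (SE 0.28, adjusted p = 4.93e-05) and -2.54 (SE 0.28, adjusted p = 6.41e-06) against controls. In EAE it was at 11.5, 11.6 and 12.3 TPM in controls and 0.290, 0.600 and 0.190 in GFP-negative libraries, and it was listed at 0 in the 3 GFP-positive libraries. GFP-negative cells were below controls by -3.24 (SE 0.28, adjusted p = 3.08e-05), and the GFP-positive group was called against controls with an adjusted p of 7.48e-06. Without GFP-negative library 1 both EAE calls were kept (-3.21, adjusted p = 0.000112, in GFP-negative cells). Rescaling kept these 4 calls, with -1.79, -2.01 and -2.87 for the first 3.

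After P6 stroke Tlr5 fell by less. The levels were 6.90, 7.30, 6.63 and 7.95 TPM on the other side, 4.60, 4.49, 4.51 and 7.34 in GFP-negative and 3.68, 2.04, 3.64 and 2.53 in GFP-positive libraries, and the GFP-positive group lay below both others without overlap. It was below the other side by -1.07 (SE 0.21, adjusted p = 0.0231), or -0.91 (adjusted p = 0.0475) rescaled, the only receptor called in this model. That call was lost when any of 6 single libraries was left out (adjusted p 0.0512 to 0.0755). In 5xFAD, Tlr5 was at 3.90, 8.94, 12.4 and 2.85 TPM in controls, 3.73, 5.42, 4.59 and 4.91 in GFP-negative and 4.82, 0.290, 4.12 and 0.170 in GFP-positive libraries. The GFP-positive libraries were split, libraries 1 and 3 at 4.82 and 4.12 TPM and libraries 2 and 4 under 0.3 TPM, and the groups overlapped. The difference from controls, -1.45 (95% interval -2.65 to -0.25, adjusted p = 0.0513), was not called, although leaving out any of 4 single libraries made it so (adjusted p 0.022 to 0.0476), and -0.98 (adjusted p = 0.269) was measured after rescaling.

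**Figure D2:**
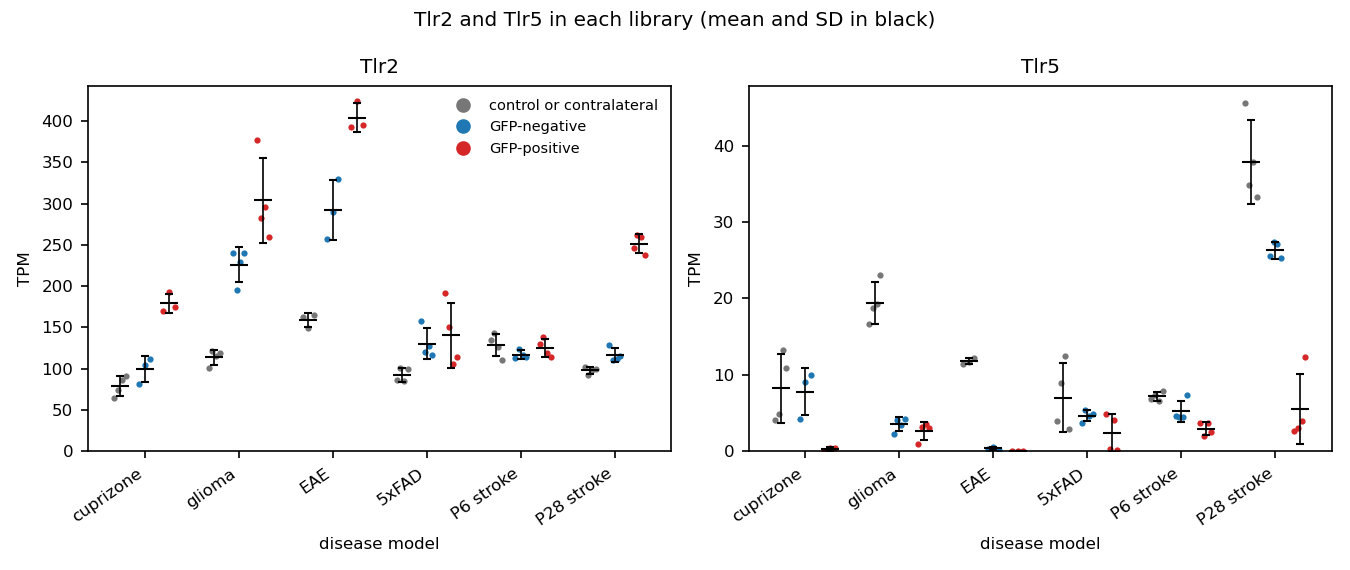
TPM of Tlr2 and Tlr5 (vertical axes, linear from 0) in every library of the 6 models (horizontal axis); grey is the control or contralateral group, blue GFP-negative and red GFP-positive, with the group mean and SD in black. Tlr2 is highest in the GFP-positive group of cuprizone, glioma, EAE and P28 stroke, and Tlr5 is at or near its lowest there.

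Tlr1, the partner of Tlr2 for triacylated lipoproteins, rose with it in some models. In cuprizone it was at 16.6, 22.4, 24.8 and 15.6 TPM in controls, 42.9, 47.6 and 24.7 in GFP-negative and 46.2, 58.6 and 44.0 in GFP-positive libraries. GFP-positive cells were above controls without overlap, by 1.29 (SE 0.25, adjusted p = 0.00296), or 1.62 rescaled, and GFP-negative library 3 lay among the controls. In glioma the levels were 48.5, 44.8, 48.0 and 53.7 TPM in controls, 71.7, 58.5, 67.7 and 70.5 in GFP-negative and 75.4, 72.8, 86.3 and 78.4 in GFP-positive libraries, again in 3 steps. Against controls the steps came to 0.45 (SE 0.11, adjusted p = 0.0032) and 0.67 (SE 0.11, adjusted p = 0.000118), and to 0.87 and 1.27 rescaled. After P28 stroke Tlr1 was at 59.5, 54.9, 54.1 and 52.8 TPM on the other side and 71.0, 77.1, 63.2 and 91.1 in GFP-positive libraries. The groups did not overlap and differed by 0.43 (SE 0.13, adjusted p = 0.0196), or 0.79 (adjusted p = 0.000234) rescaled, with an adjusted p of 0.0505 on the scale as given without GFP-positive library 4. Against GFP-negative cells (80.3, 71.0, 61.8 and 55.4 TPM) the P28 difference was called only after rescaling, at 0.50 (adjusted p = 0.00909). In EAE, GFP-positive cells were at 87.2, 93.2 and 102 TPM against 76.6, 66.2 and 56.5 in controls, called after rescaling (0.97 (adjusted p = 0.00102)) or without GFP-negative library 1 (0.50, adjusted p = 0.0112). In 5xFAD and after P6 stroke Tlr1 ranged from 15.2 to 47.5 and from 61.0 to 79.6 TPM and was not called.

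Tlr6, the partner of Tlr2 for diacylated lipoproteins, moved the other way. After P28 stroke it was at 43.1, 46.5, 42.3 and 49.0 TPM on the other side, 57.3, 44.9, 42.1 and 44.1 in GFP-negative and 28.7, 26.4, 22.7 and 29.3 in GFP-positive libraries. Every GFP-positive library was below all others, by -0.79 (SE 0.12, adjusted p = 0.000486) against GFP-negative cells and -0.74 (SE 0.12, adjusted p = 0.000482) against the other side, or -0.46 and -0.39 rescaled. In glioma, Tlr6 was at 51.1, 51.2, 65.5 and 70.4 TPM in controls, 30.6, 32.9, 26.3 and 27.99 in GFP-negative and 30.0, 27.0, 23.7 and 20.9 in GFP-positive libraries. Both GFP groups were below the controls, by -0.98 (SE 0.15, adjusted p = 0.000187) and -1.20 (SE 0.15, adjusted p = 1.91e-05), and the rescaled values were -0.57 and -0.60. In 5xFAD it was at 168, 198, 154 and 151 TPM in controls, 113, 75.0, 119 and 116 in GFP-negative and 80.1, 61.6, 63.6 and 88.2 in GFP-positive libraries. GFP-positive cells were below controls by -1.19 (SE 0.17, adjusted p = 7.13e-05), or -0.50 (adjusted p = 0.0475) rescaled. The fall in 5xFAD GFP-negative cells, -0.67 (SE 0.17, adjusted p = 0.0186), was not called after rescaling (-0.33) or without control library 2 or GFP-negative library 2 (adjusted p 0.0589 and 0.0653). Without GFP-negative library 2, whose 75.0 TPM was the lowest of its group, GFP-positive cells were called lower than GFP-negative cells (-0.67, adjusted p = 0.0243). Rescaled, with all libraries, this change was -0.17 (adjusted p = 0.717). Levels in cuprizone were high, at 97.5 to 230.2 TPM, without a call. In EAE they were 63.7 to 71.1 TPM in controls, 33.7 to 60.0 in GFP-negative and 41.6 to 54.8 in GFP-positive libraries, and Tlr6 was not called. Against controls it was called without GFP-negative library 1 (-0.46, adjusted p = 0.0412, for GFP-positive cells), without library 2 (-0.79, adjusted p = 0.0136, for GFP-negative cells) and with the replicate block (-0.57, adjusted p = 0.049, for GFP-negative cells). Rescaled, with all libraries, the changes were 0.008 (adjusted p = 0.985) in GFP-positive and -0.04 (adjusted p = 0.911) in GFP-negative cells. After P6 stroke Tlr6 ranged from 24.6 to 57.0 TPM and was not called.

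Tlr4, the lipopolysaccharide receptor, fell in GFP-positive cells of 3 models against the reference on both scales. In glioma it was at 73.4, 71.8, 75.6 and 72.4 TPM in controls, 40.6, 47.4, 37.5 and 32.2 in GFP-negative and 37.5, 35.3, 35.9 and 26.5 in GFP-positive libraries. Both GFP groups lay below every control, by -0.89 (SE 0.14, adjusted p = 0.000202) and -1.11 (SE 0.14, adjusted p = 1.79e-05), or -0.48 and -0.51 rescaled. In 5xFAD, Tlr4 was at 14.4, 15.8, 12.9 and 16.9 TPM in controls, 7.26, 13.3, 14.5 and 14.4 in GFP-negative and 2.56, 4.58, 5.89 and 5.36 in GFP-positive libraries. The GFP-positive group was below both others without overlap, by -1.55 (SE 0.31, adjusted p = 0.00111) against controls and -1.25 (SE 0.31, adjusted p = 0.0212) against GFP-negative cells. The first held after rescaling (-0.94 (adjusted p = 0.0426)) and the second did not (-0.96 (adjusted p = 0.096)). The second was also lost without any of 4 single libraries (adjusted p 0.0633 to 0.0791), which were GFP-negative libraries 2, 3 and 4 and GFP-positive library 1. After P28 stroke, Tlr4 was at 55.5, 47.4, 72.5 and 75.5 TPM on the other side, 50.7, 43.2, 51.5 and 50.3 in GFP-negative and 27.3, 25.9, 26.1 and 43.8 in GFP-positive libraries. GFP-positive library 4 reached into the GFP-negative range. The change was -1.01 (SE 0.18, adjusted p = 0.000817) against the other side, held at -0.66 (adjusted p = 0.0115), and -0.68 (SE 0.18, adjusted p = 0.0129) against GFP-negative cells, not called at -0.36 (adjusted p = 0.189). In EAE, Tlr4 was at 104, 84.7 and 72.2 TPM in controls, 14.2, 54.8 and 44.2 in GFP-negative and 49.5, 44.5 and 35.4 in GFP-positive libraries, all GFP libraries below all controls. The fall in GFP-negative cells, -1.37 (SE 0.40, adjusted p = 0.03), was lost after rescaling (-0.84 (adjusted p = 0.114)) and without any 1 of the 3 controls (adjusted p 0.0579 to 0.0973). Without GFP-negative library 1 it was -0.79 (adjusted p = 0.0159). The difference of GFP-positive cells from controls was not called with all libraries (-0.99, adjusted p = 0.09) and was called without GFP-negative library 1 (adjusted p = 0.00164). Rescaled, with all libraries, it was -0.53 (adjusted p = 0.311). Cuprizone (12.9 to 30.0 TPM) and P6 stroke (10.9 to 30.8 TPM) gave no call.

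Tlr3, the receptor of double-stranded RNA, fell most clearly in cuprizone. It was at 14.4, 16.3, 29.6 and 23.2 TPM in controls, 25.7, 19.3 and 17.4 in GFP-negative and 5.80, 8.90 and 2.95 in GFP-positive libraries. The GFP-positive libraries lay below all others, by -1.74 (SE 0.37, adjusted p = 0.0088) against GFP-negative cells and -1.71 (SE 0.34, adjusted p = 0.00361) against controls, or -1.49 (adjusted p = 0.023) and -1.42 (adjusted p = 0.0134) rescaled. In glioma it was at 65.3, 51.4, 86.5 and 73.4 TPM in controls, 55.5, 48.9, 51.7 and 31.3 in GFP-negative and 39.4, 29.7, 45.4 and 29.9 in GFP-positive libraries, with changes of -0.56 (SE 0.21, adjusted p = 0.0385) and -0.92 (SE 0.21, adjusted p = 0.00195) against controls. Neither was called after rescaling (-0.14 and -0.32), and the first was lost without any of 5 single libraries (adjusted p 0.0533 to 0.124). In 5xFAD the controls themselves ran from 4.82 to 27.98 TPM, and GFP-positive libraries were at 1.06, 2.48, 2.75 and 6.34 TPM. That change, -1.72 (SE 0.57, adjusted p = 0.0256), was -1.15 and not called after rescaling, and was lost without any of 5 single libraries (adjusted p 0.0503 to 0.0866). After P28 stroke Tlr3 was at 86.8, 87.5, 52.7 and 63.6 TPM on the other side, 62.1 to 72.8 in GFP-negative and 60.2, 45.8, 42.4 and 49.6 in GFP-positive libraries. Its change against the other side, -0.52 (SE 0.16, adjusted p = 0.0201), fell to -0.17 after rescaling without a call, and 4 single libraries each removed the call (adjusted p 0.0543 to 0.0672). Against GFP-negative cells the change of -0.43 was not called, but was without any of 3 single libraries (adjusted p 0.0307 to 0.0489), with a 5 TPM filter (0.0431), with the replicate block (0.0487) and in a fit of these 2 groups (0.0293). The median of all genes was -0.30 in this comparison, and Tlr3 was at -0.10 (adjusted p = 0.723) rescaled. In EAE, Tlr3 was at 83.1, 84.7 and 82.1 TPM in controls, 7.81, 50.1 and 49.9 in GFP-negative and 36.3, 33.2 and 37.7 in GFP-positive libraries. All GFP libraries were below the controls, without a call in the full table. Without GFP-negative library 1 it was called in both, at -0.73 (adjusted p = 0.00192) in GFP-negative and -1.20 (adjusted p = 2.19e-05) in GFP-positive cells. Rescaled, with all libraries, the changes of Tlr3 were -1.05 (adjusted p = 0.159) and -0.74 (adjusted p = 0.317). After P6 stroke it was at 15.3 to 21.3, 12.4 to 20.1 and 2.11 to 22.1 TPM in the reference, GFP-negative and GFP-positive libraries, without a call.

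Tlr7, which reads single-stranded RNA, was called in no model between the GFP groups with all libraries in the fit as described. In glioma it was at 118, 129, 124 and 140.4 TPM in controls, 94.7, 83.1, 50.7 and 60.6 in GFP-negative and 86.6, 52.4, 57.3 and 46.8 in GFP-positive libraries. Both GFP groups lay below the controls, by -0.86 (SE 0.21, adjusted p = 0.00411) and -1.10 (SE 0.21, adjusted p = 0.0005), and rescaling kept only the second (-0.44 (adjusted p = 0.0928) and -0.49 (adjusted p = 0.0465)). After P28 stroke it was at 188, 236, 186 and 186 TPM on the other side, 173, 173, 168 and 181 in GFP-negative and 142, 158, 141 and 147 in GFP-positive libraries. The 3 groups did not overlap, and the fall against the other side, -0.43 (SE 0.09, adjusted p = 0.00201), was the size of the shift of all genes, at -0.07 rescaled. Between the GFP groups the change of -0.24 was not called, but was without contralateral library 2 (adjusted p = 0.0224), with a 5 TPM filter (0.0433), with the replicate block (0.0444) and in a fit of these 2 groups (0.0496). The median of all genes was -0.30 in this comparison, and Tlr7 was at 0.09 (adjusted p = 0.567) rescaled. In cuprizone, GFP-positive libraries at 57.5, 52.5 and 49.8 TPM lay below controls at 97.5, 74.5, 66.6 and 76.4 TPM. This change, -0.54 (SE 0.15, adjusted p = 0.0258), was not called after rescaling (-0.21) or without any of 3 single libraries (adjusted p 0.0643 to 0.09). Levels in EAE were 165, 173 and 169 TPM in controls, 33.5, 142 and 132 in GFP-negative and 128, 129 and 97.0 in GFP-positive libraries. Without GFP-negative library 1 the EAE GFP-positive cells were called lower (-0.52, adjusted p = 0.00631), and without GFP-negative library 2 the GFP-negative cells were (-1.33, adjusted p = 0.0444). Rescaled, with all libraries, the changes were -0.06 (adjusted p = 0.938) in GFP-positive and -0.43 (adjusted p = 0.452) in GFP-negative cells. In 5xFAD and after P6 stroke Tlr7 ranged from 6.92 to 64.9 and from 75.0 to 156 TPM with overlapping groups.

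Tlr13, the receptor of bacterial ribosomal RNA, fell against the reference in 4 models, and none of these calls held after rescaling. In 5xFAD it was at 29.8, 69.3, 31.1 and 61.9 TPM in controls, 39.3, 42.6, 43.8 and 41.7 in GFP-negative and 23.9, 15.5, 19.3 and 15.1 in GFP-positive libraries. The GFP-positive group lay below both others, by -1.16 (SE 0.27, adjusted p = 0.0137) and -1.26 (SE 0.27, adjusted p = 0.00168), or -0.83 (adjusted p = 0.0864) and -0.58 (adjusted p = 0.134) rescaled. After P28 stroke the levels were 168, 148, 135 and 151 TPM on the other side, 162, 144, 139 and 147 in GFP-negative and 90.9, 95.9, 99.0 and 127 in GFP-positive libraries. GFP-positive library 4 was nearest to the other groups, and the changes were -0.52 (SE 0.11, adjusted p = 0.00314) and -0.55 (SE 0.11, adjusted p = 0.00166), both -0.19 rescaled. In glioma it was at 128, 100.0, 127 and 117 TPM in controls, 77.9, 74.6, 90.6 and 66.9 in GFP-negative and 76.4, 67.5, 80.2 and 64.2 in GFP-positive libraries. GFP-negative and GFP-positive cells were below controls by -0.60 (SE 0.12, adjusted p = 0.0014) and -0.70 (SE 0.12, adjusted p = 0.000287), which became -0.18 and -0.10. In cuprizone, GFP-positive libraries at 56.2, 59.5 and 36.0 TPM were below controls at 67.8, 81.3, 85.3 and 95.4 TPM. The change was -0.72 (SE 0.19, adjusted p = 0.0166), or -0.39 rescaled, and was not called without GFP-positive library 3 (adjusted p = 0.0756). With a term for sex it was -0.58 (adjusted p = 0.105), with the replicate block -0.64 (0.0582) and without the trend in the variances the adjusted p was 0.0518, so this call also failed there. In EAE, Tlr13 was at 177, 158 and 192 TPM in controls, 18.3, 126 and 108 in GFP-negative and 114, 128 and 109 in GFP-positive libraries. It was not called in EAE with all libraries, and was called on leaving out GFP-negative library 1 (-0.58 in both GFP groups, adjusted p = 0.00797 and 0.00249) or, in GFP-negative cells, library 2 (-1.94, adjusted p = 0.0255). Rescaled, with all libraries, the change in GFP-negative cells was -0.92 (adjusted p = 0.223). In a fit of the EAE control and GFP-positive libraries alone, the GFP-positive cells were called above controls in Tlr1 (adjusted p = 0.0161) and below them in Tlr3 (7.37e-05), Tlr4 (0.0024), Tlr6 (0.0233), Tlr7 (0.00938) and Tlr13 (0.00286). That fit used the scale as given, on which the median of all genes was -0.41. After rescaling with all libraries, Tlr1 was called at 0.97 and none of the others was. Their changes were -0.74 (Tlr3), -0.53 (Tlr4), 0.008 (Tlr6), -0.06 (Tlr7) and -0.11 (Tlr13). P6 stroke libraries held Tlr13 at 53.5 to 91.0 TPM without a call.

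Tlr9, the receptor of CpG DNA, was abundant in 1 table only. In the P28 stroke table it was at 79.3, 77.4, 71.5 and 70.5 TPM on the other side, 63.3, 62.8, 74.4 and 64.2 in GFP-negative and 43.1, 46.9, 48.6 and 50.9 in GFP-positive libraries, and every other library of the series was under 12 TPM. The GFP-positive group was below both others without overlap, by -0.47 (SE 0.09, adjusted p = 0.00235) against GFP-negative cells and -0.65 (SE 0.09, adjusted p = 0.000164) against the other side. After rescaling the second held (-0.29 (adjusted p = 0.0207)) and the first did not (-0.14 (adjusted p = 0.299)). The 6 tables were normalised separately, so the level across tables is a description. After P6 stroke Tlr9 was at 8.96, 7.08, 9.91 and 8.14 TPM in GFP-negative and 7.79, 3.73, 5.62 and 4.38 in GFP-positive libraries, not called with all libraries and called without GFP-positive library 1 (-0.78, adjusted p = 0.0239). Rescaled, with all libraries, the change was -0.50 (adjusted p = 0.151). In 5xFAD it was at 0.780, 1.34, 0.440 and 3.44 TPM in controls and 0.10, 0, 0.210 and 0 in GFP-positive libraries, a difference that was called on leaving out 1 library (-1.30, adjusted p = 0.0331), with a pseudocount of 0.1 (adjusted p = 0.0204) or without the trend in the variances (0.0272). Tlr9 was too low there to be tested after rescaling. In cuprizone it was at 0.12 to 2.77 TPM, and glioma (5.0 to 10.98 TPM) and EAE (2.99 to 11.6 TPM) gave no call, in EAE also without GFP-negative library 1 (adjusted p 0.12 to 0.746).

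Tlr8, which in humans reads products of RNA breakdown, was near 0 outside glioma. In glioma it was at 8.12, 1.68, 1.21 and 1.52 TPM in controls, 11.8, 7.26, 24.2 and 15.0 in GFP-negative and 7.70, 20.3, 25.0 and 28.2 in GFP-positive libraries. Control library 1, at 8.12 TPM, reached into both GFP groups, and the other controls were under 2 TPM. GFP-negative cells were above controls by 2.07 (SE 0.50, adjusted p = 0.0039) and GFP-positive cells by 2.50 (SE 0.50, adjusted p = 0.000742), or 2.35 and 2.96 rescaled. The sums of monocyte-derived markers in these GFP groups are those given above, and their part in the level of Tlr8 was not tested. Elsewhere the highest Tlr8 values were 5.70 TPM in P28 GFP-positive library 4, against 0.33 to 0.55 in the other three, and 3.05 TPM after P6 stroke. After P6 stroke GFP-positive libraries were at 2.79, 3.05, 1.69 and 0.190 TPM against 0.510, 0.150, 0.290 and 0.10 on the other side, without a call (1.08 (95% interval 0.21 to 1.95, adjusted p = 0.139)). Of the mouse receptors outside the 10, Tlr11 reached at most 3.25 TPM and Tlr12 lay between 3.35 and 60.3 TPM.

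**Figure D3:**
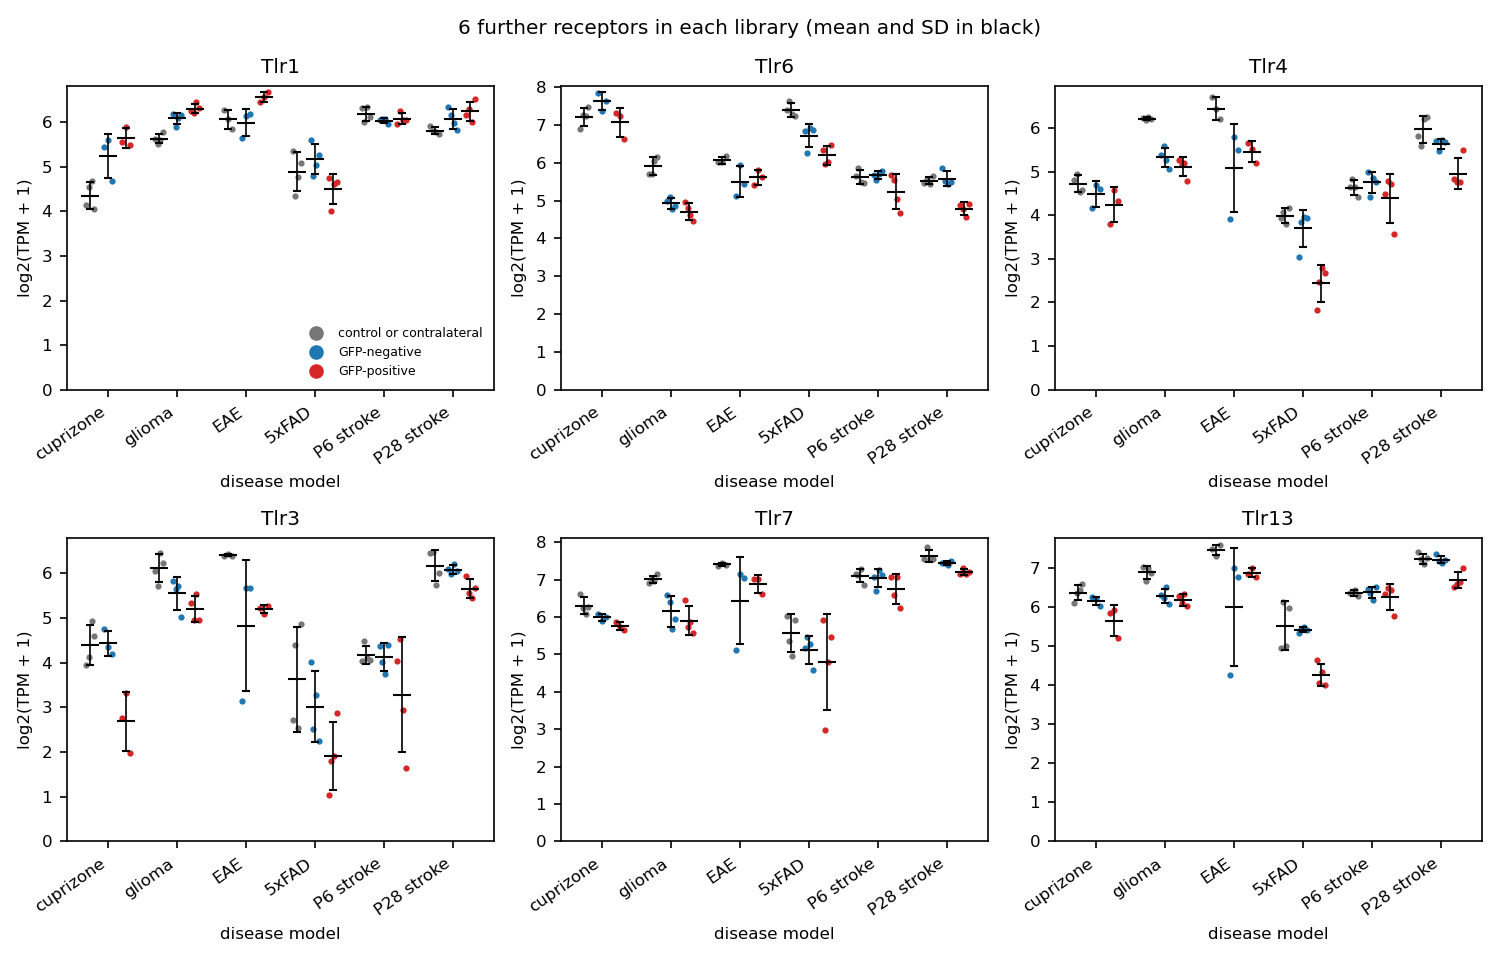
Log2(TPM + 1) of Tlr1, Tlr6, Tlr4, Tlr3, Tlr7 and Tlr13 (panels, vertical axis from 0) in every library of the 6 models (horizontal axis); grey is the control or contralateral group, blue GFP-negative and red GFP-positive, with mean and SD in black. EAE GFP-negative library 1 lies below the other two of its group in Tlr3, Tlr4, Tlr7 and Tlr13.

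Whether the difference between GFP-positive and GFP-negative cells varied among the 6 models was tested on the 11301 genes tested in all tables. Of the 9 receptors tested, 3 varied, against 16.8% of all genes. Tlr2 ran from 0.08 in 5xFAD to 1.10 after P28 stroke (adjusted p = 4.04e-06), and Tlr5 from -2.74 in cuprizone to -0.35 in glioma (adjusted p = 0.00112). Tlr13 ran from -1.16 in 5xFAD to 0.87 in EAE (adjusted p = 0.0256). It was not called after rescaling or without the trend in the variances, which both kept Tlr2 and Tlr5. The Tlr13 value in EAE rests on GFP-negative library 1, at 18.3 TPM, and without it was 0.00, but Tlr13 was still called (adjusted p = 0.0185). Without GFP-negative library 2 of EAE, Tlr3, Tlr4 and Tlr6 were called as well, 6 in all. In simulated data the share of unchanged genes among the calls of this test was well above what its threshold allows, so an adjusted p near 0.05 is weak here. Tlr7 was the least variable, from -0.33 in 5xFAD to 0.44 in EAE (adjusted p = 0.844), or from -0.33 to -0.22 without EAE GFP-negative library 1.

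**Figure D4:**
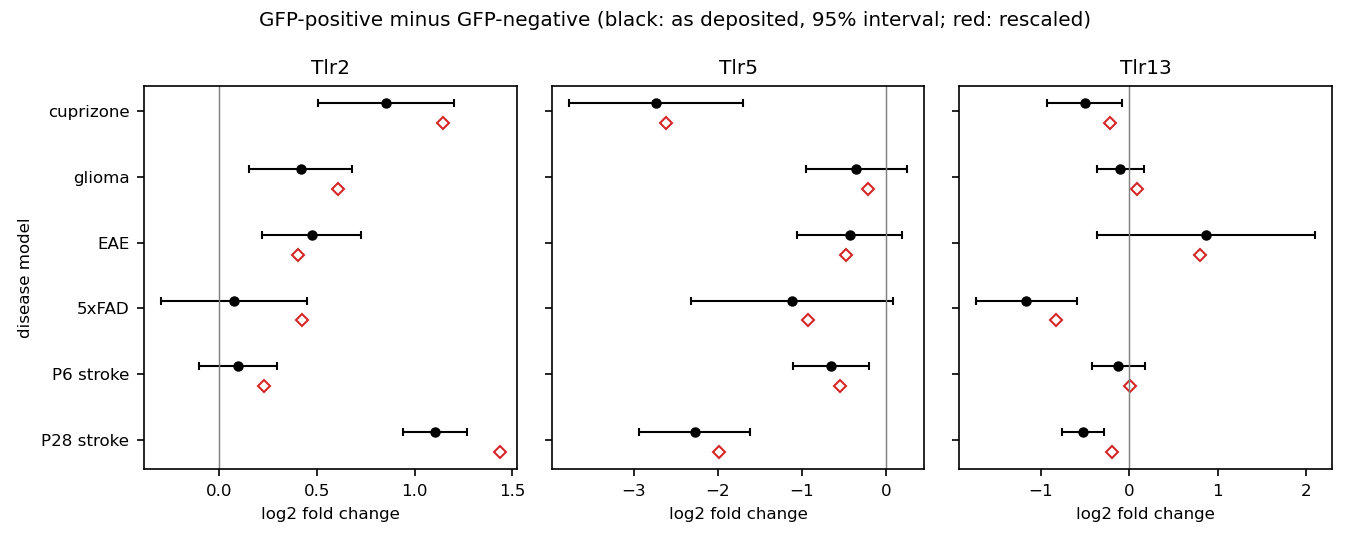
Change between GFP-positive and GFP-negative cells (horizontal axis, log2 scale, different ranges per panel) of Tlr2, Tlr5 and Tlr13 in each model (vertical axis); black points are values as given with their 95% interval and red diamonds rescaled values. Tlr2 lies near 1 in cuprizone and P28 stroke and near 0 in 5xFAD and P6 stroke, and Tlr5 lies below -2 in cuprizone and P28 stroke.

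The order of the receptors also differed between groups, as a description on the TPM scale, which is per transcript length. Among the references, Tlr6 was first in cuprizone controls (mean 149 TPM) and 5xFAD controls (168 TPM), without overlap with the next. Tlr7 was first in glioma controls and in both stroke references (128, 138 and 199 TPM), overlapping with Tlr13 in glioma and with Tlr2 after P6 stroke, but clear of Tlr13 after P28 stroke. Tlr13 was first in EAE controls (176 TPM) and overlapped with Tlr7. Tlr2 was first in every GFP-positive group, without overlap with the next in 5 of them and overlapping with Tlr7 after P6 stroke. It was also first in GFP-negative cells of glioma and EAE (226 and 292 TPM), without overlap, and of 5xFAD (130 TPM), overlapping with Tlr6. In the other GFP-negative groups Tlr6 was first in cuprizone (197 TPM) and Tlr7 after P6 and P28 stroke (132 and 174 TPM). The lower end was Tlr5, Tlr8 and Tlr9 in each reference but that of P28 stroke, where Tlr9, at a mean of 74.7 TPM, overlapped with Tlr3.

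Summed over the 10 receptors, group means ran from 299 TPM in 5xFAD GFP-positive to 868 TPM in EAE GFP-positive cells. The mean share of Tlr2 in that sum was 16.9, 19.2 and 36.6% in the control, GFP-negative and GFP-positive cells of cuprizone. It was 17.8, 38.7 and 47.3% in glioma, 19.1, 46.6 and 46.5% in EAE and 21.9, 34.7 and 47.0% in 5xFAD. After P28 stroke the share was 12.3, 15.3 and 34.1%, and after P6 stroke 24.5, 23.3 and 27.6%. Without EAE GFP-negative library 1 the share in EAE GFP-negative cells was 39.0%. A share does not depend on the scale of a library, and it also moves when other receptors move. Tlr6 held 31.9 and 39.7% of the sum in cuprizone and 5xFAD controls and 5.69 to 9.25% in the other references. Tlr9 held 9.39% in the P28 reference and at most 1.69% in all groups of the other 5 models.

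**Figure D5:**
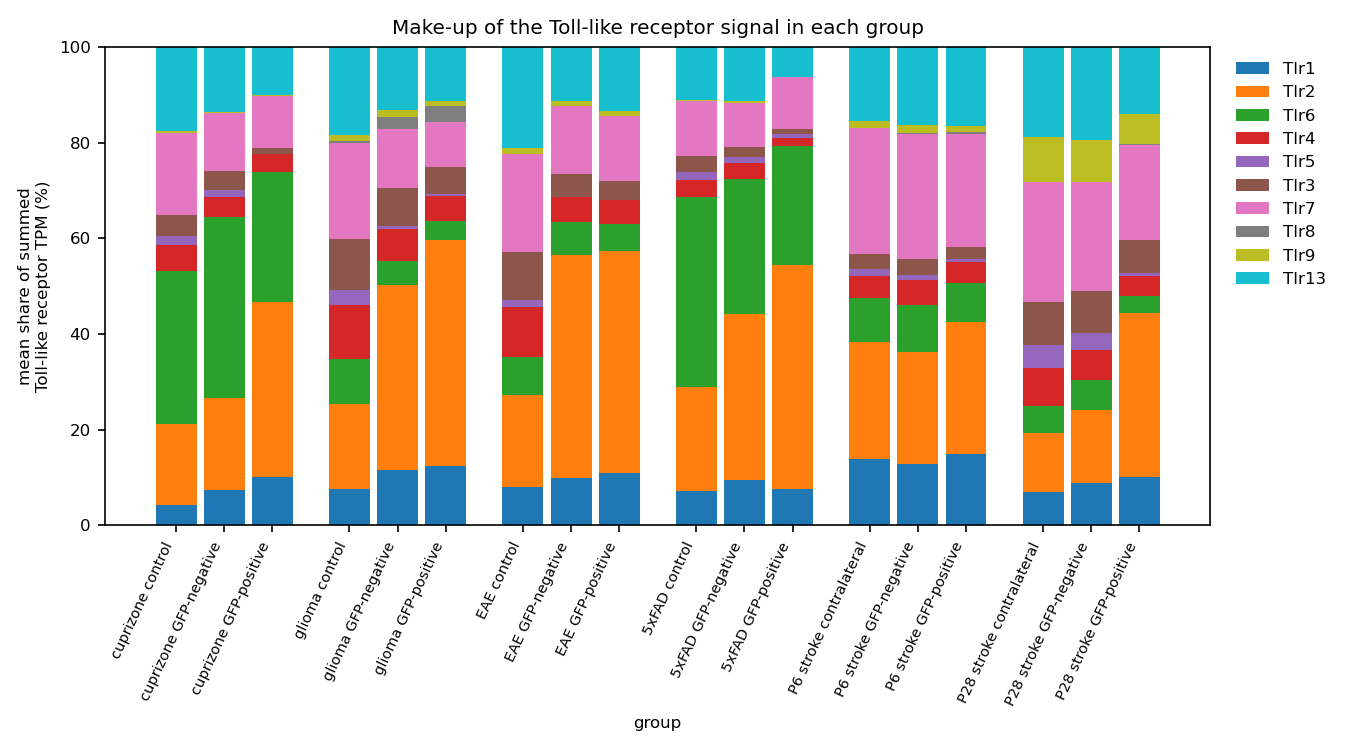
Mean share of each of the 10 receptors in their summed TPM (vertical axis, percent, from 0 to 100) in the 18 groups (bars). The Tlr2 segment is 12.3 to 24.5% in the references, 15.3 to 46.6% in the GFP-negative groups and 27.6 to 47.3% in the GFP-positive groups.

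Over the 67 libraries, after subtracting each table's mean, Tlr2 and Tlr5 ran against each other (r = -0.82), and Tlr2 also ran against Tlr4 (r = -0.63) and Tlr6 (r = -0.61). Tlr4 and Tlr13 (r = 0.80) and Tlr3 and Tlr13 (r = 0.78) ran together, as did Tlr4 and Tlr6 (r = 0.72). Of the 11301 genes, those most like Tlr2 were Ly9 (r = 0.92), Cybb, the catalytic subunit of the phagocyte NADPH oxidase (0.91), and Rai14 (0.91). Most like Tlr5 were Cd164 (0.91), Entpd1, an ectonucleotidase of microglia (0.88), and Cnpy3, a chaperone of Toll-like receptors (0.87). Tlr4 was nearest to Nckap1l (0.90), Tlr6 to Frmd4b (0.88), Tlr13 to Api5 (0.93), Tlr3 to Fnbp1 (0.82), Tlr7 to Sec14l1 (0.79), Tlr9 to Kctd20 (0.69) and Tlr1 to Plekho2 (0.67). Without EAE GFP-negative library 1, r moved to -0.69 for Tlr2 with Tlr4, 0.77 for Tlr4 with Tlr13 and 0.75 for Tlr3 with Tlr13, and the nearest genes became Ppox for Tlr7 (0.75) and Zfp944 for Tlr9 (0.64), while the nearest genes of the others stayed. These values are descriptions. The libraries share tables, groups and the same total per library, and r includes the group differences described above.

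Genes around the receptors were followed in 4 lists. Accessory and trafficking proteins load, cut or carry the receptors and their ligands. In cuprizone GFP-positive against GFP-negative cells, 1 of 18 tested rose and 5 fell (median -0.12, all genes -0.25), which turned to 6 up and 1 down after rescaling. Over all genes of this comparison 2.7% were called up and 7.49% down, and upward calls went from 26.5 to 68.8% of all calls on rescaling. After P28 stroke the same comparison gave 7 up and 6 down of 18 (median 0.06, all genes -0.30), or 9 and 1 rescaled, while 5.86% of all genes were called up and 23.2% down and the upward share of all calls went from 20.2 to 63.6%. Pld3, an endolysosomal nuclease that degrades single-stranded ligands of Tlr9, rose between GFP-negative and GFP-positive cells in all 6 models, on both scales. Its changes were 1.29 in cuprizone, 0.81 in glioma, 1.13 in EAE, 0.88 in 5xFAD, 0.42 after P6 stroke and 1.04 after P28 stroke (adjusted p 0.0437 in glioma, lower in the others). Its relative Pld4 fell in cuprizone and 5xFAD, at -0.57 (SE 0.09, adjusted p = 0.00102) and -0.69 (SE 0.09, adjusted p = 0.000178), the first not called after rescaling. Cnpy3 fell against the reference in cuprizone (-0.61), glioma (-1.42), P6 stroke (-0.31) and P28 stroke (-0.61), and after rescaling only in glioma (-0.81) and P28 stroke (-0.25). Unc93b1, which carries endosomal receptors to their compartment, fell between the GFP groups of 5xFAD at -0.79 (SE 0.08, adjusted p = 4.48e-05). Cd36, a scavenger receptor that works with Tlr2 and Tlr6, rose in GFP-positive cells against controls in glioma at 4.31 (SE 0.43, adjusted p = 2.96e-06) and in EAE at 5.52 (SE 0.37, adjusted p = 3.37e-06). In EAE it also rose in GFP-negative cells (4.87, adjusted p = 1.18e-05) and was not called between the GFP groups (0.64, adjusted p = 0.595). Cd14, the lipopolysaccharide carrier of Tlr4, fell against controls in EAE GFP-positive cells at -1.61 (SE 0.10, adjusted p = 1.9e-06) and in EAE GFP-negative cells at -1.36 (adjusted p = 9.41e-06). It rose between the GFP groups of glioma at 0.71 (SE 0.10, adjusted p = 0.00229) and was not called between those of EAE (-0.25, adjusted p = 0.385).

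The list of adaptors, kinases and transcription factors mostly followed the shift of all genes. In 5xFAD GFP-positive cells against controls 1 of 25 rose and 16 fell (median -0.84, all genes -0.57), which became 2 and 5 after rescaling. Over all genes 6.11% were called up and 33.9% down there, and the upward share of all calls went from 15.3 to 59.9% on rescaling. In glioma the same comparison gave 4 up and 16 down of 26, and 7 and 7 rescaled, with 17.7% of all genes called up and 45.9% down and an upward share of 27.8%, or 54.9% rescaled. Nfkb1, a subunit of NF-kB, fell between the GFP groups in cuprizone, glioma, 5xFAD and P28 stroke, at -0.71, -0.84, -0.85 and -0.85, and after rescaling in glioma and P28 stroke only. Irf7 and Ikbke both act in type I interferon induction. Irf7 rose in GFP-positive cells against the reference in glioma (5.69), EAE (3.20) and P28 stroke (4.24), and Ikbke rose there by 5.08, 5.65 and 2.56. In EAE both also rose in GFP-negative cells, Irf7 by 3.56 (adjusted p = 1.74e-07) and Ikbke by 3.65 (adjusted p = 0.000123). Neither was called between the EAE GFP groups (-0.37, adjusted p = 0.4, and 2.00, adjusted p = 0.052). Brakes on signalling were mixed. In glioma GFP-positive cells 8 of 17 rose and 4 fell (11 and 3 rescaled), and in 5xFAD GFP-positive cells 8 of 16 fell and none rose (1 and 1 rescaled). The medians were 0.40 in glioma (all genes -0.51) and -0.82 in 5xFAD (all genes -0.57), and the shares of all genes called in these comparisons are those just given.

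Genes induced through the receptors, and through other routes, moved most in glioma, EAE and P28 stroke. In glioma GFP-negative cells against controls all 21 tested rose (median 3.33, all genes -0.37), in EAE 11 of 15 rose and 1 fell (median 2.05, all genes -0.47), and the counts were 21 and 12 of 16 up after rescaling. Over all genes 16% were called up and 36.8% down in glioma and 5.88% and 24.5% in EAE. Without EAE GFP-negative library 1 the EAE count was 12 up and 1 down of 15. After P28 stroke 10 of 14 rose and 2 fell between the GFP groups (median 1.75, all genes -0.30), or 11 and 1 rescaled. Over all genes 5.86% were called up and 23.2% down there, and the upward share of calls went from 20.2 to 63.6% on rescaling. In cuprizone GFP-positive cells against controls 6 of 13 rose and 1 fell (median 1.41, all genes -0.29), or 7 and 0 rescaled. Over all genes 4.5% were called up and 13.7% down there, and the upward share went from 24.8 to 64.1%. After P6 stroke none of 13 was called by limma in any of the 3 comparisons, with medians of -0.18 to -0.10. Few genes of any kind were called there. The shares of all genes were 3.36% between the GFP groups, 0.274% in GFP-negative and 3.11% in GFP-positive cells against the reference. Medians of all genes were -0.12, -0.05 and -0.17. Ccl3, a macrophage chemokine, rose between the GFP groups in cuprizone at 1.61 (SE 0.23, adjusted p = 0.000623), in glioma at 0.94 (SE 0.20, adjusted p = 0.0149) and after P28 stroke at 2.03 (SE 0.29, adjusted p = 0.000257). Ccl5 rose from a mean of 4.39 TPM in glioma controls to 1166 in GFP-negative and 1083 in GFP-positive cells, and from 5.11 to 807 and 820.5 TPM in EAE. Il6, a cytokine of this list, fell in 5xFAD GFP-positive cells against controls at -2.54 (SE 0.34, adjusted p = 3.47e-05), or -1.93 rescaled, and Il1a fell there at -1.83 (SE 0.29, adjusted p = 0.000167). The sums of monocyte-derived markers given above were higher than in controls in both GFP groups of glioma and EAE. They were also higher in P28 GFP-positive libraries. Between the glioma GFP groups they were mostly lower in GFP-positive libraries. This list had a median of 0.76 there (all genes -0.15), with 2 of 21 up and 0 down, or 5 and 0 rescaled. Over all genes of that comparison 0.927% were called up and 5.75% down, and the upward share of calls went from 13.9 to 43.7% on rescaling. The part of monocyte-derived cells in the lists was not tested.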

How the data were processed

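The 6 tables hold TPM values, deposited by the authors, for 55413 gene symbols, and each of the 67 columns used sums to between 999999 and 1000001. Libraries were made with a modified SMART-Seq2 protocol, per the labels' protocols. The submitters' processing notes list RSEM 1.3.3 beside STAR 2.7.5c, and edgeR 3.32.0 beside cutadapt 2.10. They also list R 4.1.3, Seurat 4.1.1 and Cell Ranger 7.0.0, and mm10 as well as GRCm38 as builds, without saying which step used which. No source used here gives counts or depth. The 4 single-cell pools were not analysed here.

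Each table was fitted with limma 3.58.1 in R 4.3.3 on log2(TPM + 1), with its 3 groups in 1 model and a trend in the variances. A gene was tested if it reached 1 TPM in at least the number of libraries of its table's smallest group. Its p was adjusted by Benjamini and Hochberg over all tested genes, and an adjusted p under 0.05 made a call. The difference between models was tested on the 6 changes and their errors. Alternatives were a pseudocount of 0.1, no filter or a 5 TPM filter, median-of-ratios rescaling, no trend, a replicate block, a term for sex, fits of 2 groups, a threshold of 0.01, 1 fit over all tables and leaving out each library. The receptors and lists were chosen with earlier results of these data known. All 10 receptors are named in each comparison. At most 4 called members of a list are named per comparison, by smallest adjusted p, and the 3 genes of most similar pattern were sought per receptor. The fit was tested on simulated data. Python 3.11.15 and matplotlib 3.10.9 drew the figures.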

Additional observations from a re-analysis of the deposited data

Results flagged for a closer look

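In 18 of 130 sets of 4 libraries (1 receptor in 1 group), a single library lay far from the others. Its gap to the nearest was more than 0.829 of the whole range, both taken on log2(TPM + 1). Chance gives about 1 such set in 20 only where values spread normally. Where the other libraries of a set were at 0, as in some Tlr8 sets, any value above 0 is flagged, so the 2 rates cannot be compared. GFP-positive library 4 after P28 stroke was the high one in Tlr4 (43.8 TPM against 25.9 to 27.3) and in Tlr8 (5.70 against 0.33 to 0.55). GFP-negative libraries after P28 stroke stood apart in Tlr4 (library 2, 43.2 against 50.3 to 51.5), Tlr8 (library 2, 0.12 against 0) and Tlr9 (library 3, 74.4 against 62.8 to 64.2). Contralateral library 2 of P28 stroke stood apart in Tlr7 (235.6 against 185.6 to 187.5) and Tlr8 (0.14 against 0).

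In 5xFAD, GFP-negative library 1 was low in Tlr4 (7.26 against 13.3 to 14.5), library 2 was low in Tlr6 (75.0 against 113 to 119) and alone above 0 in Tlr8 (0.13). GFP-positive library 2 was low in Tlr1 (15.2 against 23.6 to 25.8) and library 3 alone above 0 in Tlr8 (0.10). In glioma, control library 1 was high in Tlr8 (8.12 against 1.21 to 1.68). Glioma GFP-positive library 1 was low in Tlr5 (0.94 against 3.02 to 3.63) and library 4 in Tlr9 (5.00 against 7.12 to 7.60), and GFP-negative library 2 was low in Tlr9 (6.92 against 8.27 to 8.51). Cuprizone control library 4 was high in Tlr8 (1.24 against 0.14 to 0.27), and P6 stroke GFP-negative library 4 was high in Tlr5 (7.34 against 4.49 to 4.60).

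The change between GFP-positive and GFP-negative cells differed between models in 3 receptors, by the test over the 6 changes, with adjusted p = 4.04e-06 for Tlr2, 0.00112 for Tlr5 and 0.0256 for Tlr13. The call of Tlr13 was lost after rescaling and without the trend in the variances. The largest and smallest changes were seen with P28 stroke and 5xFAD for Tlr2, and with cuprizone and glioma for Tlr5.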

How the results depend on the processing

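Of 3323 values of single receptors computed under an alternative, 3190 kept their direction and side of the threshold, 81 were no longer called, 52 were newly called and none of those called changed sign. Leaving out 1 library gave 10 to 13 calls between the GFP groups (11 with all libraries), 12 to 17 between GFP-negative cells and the reference (13), 30 to 38 between GFP-positive cells and the reference (32) and 3 to 6 receptors that differed between models (3). The 6 came without GFP-negative library 2 of EAE. Of 305 counts, 304 stayed within 1.5 times the reported one. Rescaling moved the balance most, from 2 up and 9 down to 4 and 4 between the GFP groups, from 4 and 9 to 5 and 4, and from 9 and 23 to 10 and 14. The cause of the shift it removes was not tested. Calls that also failed under another setting than rescaling or a left-out library were, without the trend in the variances, Tlr2 (adjusted p = 0.055) in 5xFAD GFP-positive, Tlr6 (0.0629) in 5xFAD GFP-negative, Tlr3 (0.0561) in glioma GFP-negative and Tlr7 (0.0628) in cuprizone GFP-positive cells. Without a filter they were Tlr3 in 5xFAD GFP-positive (0.0763) and glioma GFP-negative cells (0.0762), Tlr4 in EAE GFP-negative (0.0781) and Tlr5 in P6 stroke GFP-positive cells (0.0556), and in a fit of 2 groups Tlr4 (0.0682) and Tlr5 (0.0612) failed again, each against the reference. The replicate numbers were not used as pairs in the main fit. Correlations of deviations between libraries of the same number were -0.08 to 0.20, not above 0.1 in every pair of any comparison. After P6 stroke all were above 0 (0.001 to 0.137), and libraries 1 and 2 were male and 3 and 4 female in each group. Whether the numbers mark pairs is therefore not settled. With the numbers as a block the counts were 13, 15 and 32, and 4 between models, or 12 in a fit of the GFP groups alone, added after the data were seen. Values near 0, as for Tlr8, Tlr9 and Tlr5 in GFP-positive cells, are limited by a depth that is unknown.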
